A study of Mus musculus with 8 samples.

Results

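The genes described here are the 5 that encode the plasminogen activators of the cell surface, their receptor and a pair of serpins that act on them: Plau, Plat, Plaur, Serpinb2 and Serpine2. They were taken by symbol from the 24052 gene symbols counted in each of 8 RNA-Seq libraries of mouse medullary thymic epithelial cells (mTECs), and all 5 were among them. The choice was made with the difference between mutant and WT cells known, so for these 5 genes that difference is given as a description, with no test.

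The plasminogen activators are serine proteases that cut the inactive plasminogen to plasmin, which in turn degrades fibrin and extracellular matrix and activates other proteases. Plau encodes urokinase, which is bound at the cell surface by the receptor encoded by Plaur and works mainly in pericellular proteolysis, cell adhesion and migration. Plat encodes the tissue-type activator, known mainly for fibrinolysis. Serpins inhibit such proteases by forming a covalent complex with them. Serpinb2 encodes plasminogen activator inhibitor 2, a clade B serpin found largely inside the cell, and Serpine2 encodes protease nexin 1, a secreted inhibitor of thrombin, urokinase and plasmin.

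The samples came from the mTEC 3.10 line of C57BL/6 origin, here WT, and from E6, a single clone derived from it. E6 is labelled both Aire KO and Aire +/-, while the study describes CRISPR-Cas9 mutations of Aire exon 3 on both alleles. Each was sampled before and after thymocyte adhesion, a co-culture for 12 h with 50 C57BL/6 thymocytes per mTEC followed by washing, in 2 libraries per condition. The labels do not say that the libraries came from separate cultures. In each condition except WT before adhesion, however, the 2 libraries differ in the culture time given. The p-values thus measure the spread between these libraries, which includes any effect of that time and may be only technical in WT before adhesion. As E6 is 1 clone, an effect of its Aire mutations and other differences of this clone cannot be told apart. The labels give a culture of 24 h for 1 library of each condition except WT before adhesion and of 12 h for the other 5. For E6 before adhesion the written protocol speaks of co-culture, whereas titles and source names do not, and the latter were followed.

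The libraries held 13506610 to 20145154 gene counts each. Aire itself had no count in 6 libraries and 0.149 and 0.184 CPM (counts scaled to the library's total on genes) in a library each of WT and E6 after adhesion, too low to check the genotype labels. Of the mTEC markers, Epcam, Krt8, Krt18, Krt14 and Cldn4 ranged from 251 to 2094 CPM, whereas Cd80 stayed at or below 0.245 CPM, H2-Aa at or below 1.17 CPM and Krt5 at or below 1.04 CPM. The summed level of the 14 thymocyte markers measured went from 0.518 to 0.547 CPM in WT before adhesion to 12.4 to 14.6 CPM after it, and from 0.264 to 0.966 CPM in E6 before adhesion to 86.9 to 107 CPM after it. Replicate 1 of WT after adhesion stood apart: genes took 66.7% of its alignments, where the remaining 7 libraries had 75.7% to 78.8%.

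The promoters of Serpinb2 and Plaur are shown first, because these were the genes whose levels were higher in E6. RefSeq sequences on GRCm38.p6 were matched for 3 of the 5 genes, Serpinb2, Plaur and Serpine2. The 250 bases before the first Serpinb2 start (chr1:107511173-107511422, plus strand) and before the Plaur start (chr7:24462233-24462482, plus strand) are given 5′ to 3′, with matches to the motifs searched in capitals.
Serpinb2: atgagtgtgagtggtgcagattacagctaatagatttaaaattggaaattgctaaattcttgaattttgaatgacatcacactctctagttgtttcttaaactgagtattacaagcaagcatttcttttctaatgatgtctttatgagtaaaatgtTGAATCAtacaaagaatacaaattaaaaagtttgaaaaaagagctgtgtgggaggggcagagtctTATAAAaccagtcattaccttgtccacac
Plaur: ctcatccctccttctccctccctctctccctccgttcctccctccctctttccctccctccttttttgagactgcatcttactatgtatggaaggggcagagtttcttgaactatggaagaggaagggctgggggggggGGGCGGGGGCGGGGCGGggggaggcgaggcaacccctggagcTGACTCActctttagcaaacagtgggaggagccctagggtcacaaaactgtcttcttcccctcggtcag
The letters TGANTCA of an AP-1 site occurred in both, as TGAATCA from base -94 to -88 in Serpinb2 and as TGACTCA from -69 to -63 in Plaur, where -1 is the base just before the start. A TATA box (TATAAA) lay from -29 to -24 in Serpinb2, while Plaur held 3 GC boxes (GGGCGG) between -111 and -95, of which a pair share the base at -100. Of 32851 mouse promoters searched the same way on both strands, 6.75% held TGANTCA, 12.4% TATAAA and 32.7% GGGCGG. The letters TGACGTCA of a CRE (1.55% of promoters) were found in no window of the 3 genes, and the Serpine2 window held 6 GC boxes and no other match. These matches describe the letters of the window and do not show that a factor binds there.

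Plau, the gene of the urokinase protease, was expressed at a similar order in every library. It lies on chromosome 14 from 20836660 to 20843385 on the plus strand (GRCm38). Its levels were 169 and 149 CPM in WT before adhesion, 106 and 157 CPM in WT after adhesion, 163 and 129 CPM in E6 before adhesion, and 197 and 206 CPM in E6 after adhesion. Both E6 libraries after adhesion were above all 6 others, which held for 9.09% of all tested genes, and replicate 1 of WT after adhesion was the lowest. The order of the condition means was E6 after (202 ± 5.87 CPM, SD, n = 2), WT before (159 ± 14.1), E6 before (146 ± 24.5) and WT after (131 ± 35.5), and the libraries of the last 3 conditions overlapped. Across both states WT stood at 145 ± 27.2 CPM and E6 at 174 ± 35.2 CPM (SD, n = 4), with overlapping libraries and a fitted log2 fold change (FC) of E6 against WT of 0.23 (SE 0.13).

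After thymocyte adhesion Plau moved in opposite directions in the 2 cell types by the point estimates, but neither change passed the test. The log2 FC was -0.25 (SE 0.18) in WT, with an FDR (Benjamini-Hochberg adjusted p of edgeR's quasi-likelihood test over 11672 genes) of 0.633, and 0.42 (SE 0.18) in E6, with an FDR of 0.722. Without replicate 1 of WT after adhesion, the library that stood apart, the value in WT was only -0.06. A gene was called DE at an FDR below 0.05 and an FC of at least 1.5. The difference between the 2 adhesion effects was 0.67 (SE 0.25, 95% interval 0.08 to 1.26), with an unadjusted edgeR p of 0.0314 and an FDR of 0.988. This value depended on WT after adhesion: without its replicate 1 the difference was 0.51, and without its replicate 2 it was 0.93 with an edgeR FDR of 5.08e-06, a fit in which 3049 genes were called where the fit of all 8 libraries called 0 (297 at an unadjusted p under 0.05, and 3 by DESeq2). Within E6, Plau went from 129 to 206 CPM between the libraries cultured for 12 h and from 163 to 197 CPM between those cultured for 24 h, each a pair of single libraries without a test. Markers of other cells moved with adhesion in E6 as well: 10 of the 11 tested thymocyte markers and 4 of the 10 tested macrophage and dendritic cell markers were DE and higher. Of all tested genes 2% were called in E6, in either direction. In WT the test called 0% of all genes and 0 of the 11 tested thymocyte markers, whose median log2 FC was 5.22. A gene without a call in WT may thus still have changed. The tested thymocyte markers passed the filter on low counts through libraries after adhesion. So did the tested macrophage and dendritic cell markers other than Csf1r, Cd14 and Cd68. The rise of such markers is thus partly a condition of being tested. The 13 macrophage and dendritic cell markers measured summed to 58.3 to 68.2 CPM in E6 before and 79.2 to 79.9 CPM after adhesion. Most of each sum was Csf1r and Cd14, yet Csf1r stood at 54.0 and 41.2 CPM before and 41.5 and 41.7 CPM after adhesion. Lyz2 had no count in the 4 libraries before adhesion and stood at 6.68 and 5.40 CPM in E6 after it. The part of such other cells in the Plau values was not tested. In such bulk RNA more cells of a type and more RNA per cell cannot be told apart.

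**Figure D1:**
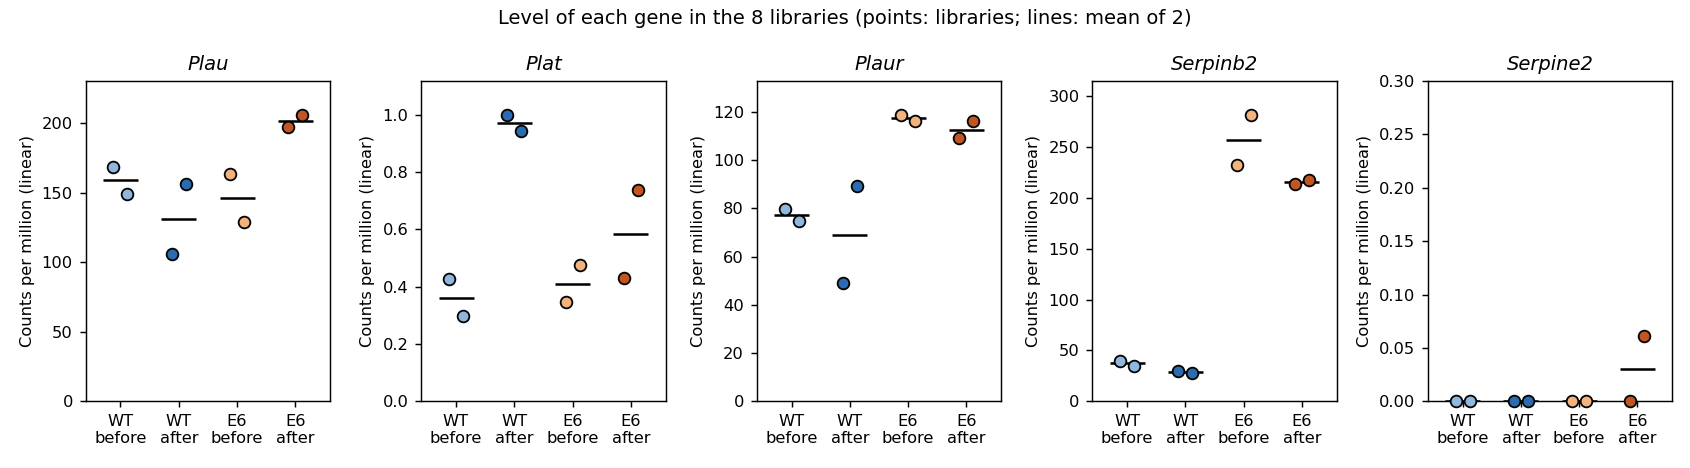
Level of Plau, Plat, Plaur, Serpinb2 and Serpine2 in CPM (linear axes from 0, a separate scale for each gene) in WT and E6 before and after thymocyte adhesion; points are the 2 libraries of each condition and lines their mean. Serpinb2 lies at 27.6 to 39.9 CPM in WT and 214 to 281 CPM in E6, while both Plau values of E6 after adhesion lie above the other 6 and Serpine2 has a single count.

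Plat, the gene of the tissue-type activator, was near the limit of detection. It lies on chromosome 8 from 22757727 to 22782844 on the plus strand. WT held 7 and 4 counts before adhesion (0.425 and 0.296 CPM) and 15 and 19 counts after it (0.998 and 0.943 CPM). E6 held 5 and 9 counts before adhesion (0.345 and 0.476 CPM) and 7 and 12 counts after it (0.429 and 0.736 CPM). The exact 95% counting intervals of single libraries were wide, from 0.171 to 0.876 CPM for the 7 counts of WT before adhesion and from 0.558 to 1.65 CPM for the 15 counts of WT after it, and they cover counting error only. In WT both libraries after adhesion were above both before it, as for 16.8% of all tested genes, and in E6 they did overlap. Plat passed the filter on low counts through its libraries after adhesion, so its higher level there is partly a condition of being tested. Averaged over both cell types its log2 FC after adhesion was 0.92 (SE 0.34, 95% interval 0.12 to 1.72), with an edgeR FDR of 0.406. Between E6 and WT its log2 FC was -0.29 (SE 0.35).

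Per kilobase of exon, Plau exceeded Plat in every library, by a factor of 281 to 1327. The smallest factors, 281 and 438, were those of the 2 WT libraries after adhesion, where Plat had its largest counts.

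Plaur, the gene of the urokinase receptor, a protein anchored in the membrane by a lipid, was higher in E6 than in WT. It lies on chromosome 7 from 24462484 to 24475968 on the plus strand. Its levels were 79.8 and 74.8 CPM in WT before adhesion, 48.9 and 89.1 CPM in WT after adhesion, 119 and 116 CPM in E6 before adhesion, and 109 and 116 CPM in E6 after adhesion. All 4 E6 libraries were above all 4 WT libraries, which held for 15.7% of all tested genes. WT averaged 73.2 ± 17.2 CPM and E6 115 ± 4.11 CPM (SD, n = 4), and the fitted log2 FC was 0.64 (SE 0.15), with 0.62 (SE 0.22) before and 0.66 (SE 0.22) after adhesion. Replicate 1 of WT after adhesion held the lowest value, and without it the averaged log2 FC was 0.49 and that after adhesion 0.37. Without replicate 2 of WT after adhesion, the value after adhesion was instead 1.10. Between libraries cultured for 12 h, E6 (n = 2) was 1.71 times WT (n = 3), and between those cultured for 24 h, E6 (n = 2) was 1.28 times the single WT library.

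No change of Plaur after adhesion passed the test. The log2 FC averaged over both cell types was -0.13 (95% interval -0.48 to 0.23), with an edgeR FDR of 0.759. It was -0.15 (FDR 0.771) in WT and -0.11 (FDR 1) in E6, and the difference between them was 0.04 (95% interval -0.67 to 0.75). Without replicate 1 of WT after adhesion, the sign turned in the averaged contrast (0.042), in WT (0.17) and in the difference (-0.25), with no call in any of these fits. The condition means ran in the order E6 before, E6 after, WT before and WT after, and neighbours within a cell type differed by less than the larger SD of the 2.

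Serpinb2, which encodes an inhibitor of urokinase and the tissue-type activator, showed the widest range of the 5 genes between the 2 cell types. It lies on chromosome 1 from 107511423 to 107535478 on the plus strand, and its last part overlaps Serpinb10 on the same strand, so reads in the overlap could have been lost or assigned to either gene. WT held 39.9 and 35.0 CPM before adhesion and 29.6 and 27.6 CPM after it. E6 held 232 and 281 CPM before adhesion and 214 and 217 CPM after it. The lowest E6 library was thus several times the highest WT library. All 4 E6 libraries were above all 4 WT libraries, as for 15.7% of all tested genes. Within a cell type the values ran from 27.6 to 39.9 CPM in WT and from 214 to 281 CPM in E6. WT averaged 33.0 ± 5.55 CPM and E6 236 ± 31.0 CPM (SD, n = 4), for a fitted log2 FC of 2.82 (SE 0.11), with 2.79 (SE 0.16) before and 2.85 (SE 0.16) after adhesion. Leaving out any of the 8 libraries kept the averaged value between 2.74 and 2.89, and E6 was 7.14 times WT at 12 h of culture (n = 2 and 3) and 8.08 times at 24 h (n = 2 and 1). The study names a gene Serpin2 among those it selected on these libraries. The name can be read as Serpinb2 or as Serpine2, but Serpine2 had 0 counts over the WT libraries and 1 over those of E6. Serpinb2 had 2129 and 15692 counts, so the name is taken here as Serpinb2. The study's figure caption gives thymocyte adhesion as a variable of that selection, whereas here Serpinb2 was not DE after adhesion. As the gene was picked on these libraries, the difference between E6 and WT is not independent evidence.

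After adhesion Serpinb2 was lower in both cell types, by less than the fold limit and without passing the test. The log2 FC was -0.36 (SE 0.15) in WT, with an edgeR FDR of 0.62, and -0.30 (SE 0.14) in E6, with an FDR of 0.871. The libraries before and after adhesion did not overlap in either cell type, and 14.5% of all tested genes in WT and 31.5% in E6 were lower after adhesion in this way. Averaged over both cell types the value was -0.33 (SE 0.10, 95% interval -0.57 to -0.09), with an unadjusted edgeR p of 0.0147 and an FDR of 0.281. The difference between the 2 adhesion effects was 0.06 (95% interval -0.43 to 0.54).

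Of the 4 genes tested, 0 were DE after adhesion in either cell type or in the average, where 1.89% of all genes were called by edgeR in the average, 2% in E6 and 0% in WT. Averaged over both cell types, 2 of the 4, Serpinb2 and Plat, had an unadjusted edgeR p under 0.05, as did 9.89% of all tested genes, and Plat had passed the filter through its libraries after adhesion. By DESeq2, 0 of the 4 were called. The numbers of genes called in WT alone were 873 at an unadjusted p under 0.05 and 64 by DESeq2. The 11 tested thymocyte markers were not called in WT by edgeR either, so a missing call there does not show the lack of a change.

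**Figure D2:**
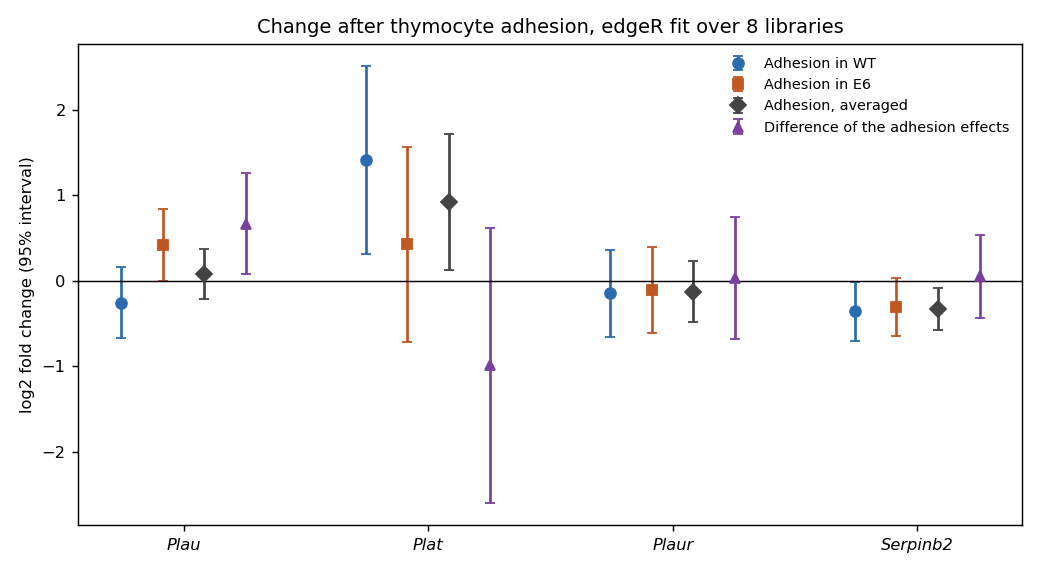
log2 fold change after thymocyte adhesion from the edgeR fit over 8 libraries for Plau, Plat, Plaur and Serpinb2; markers show WT, E6, the average and the difference of E6 minus WT, and bars are 95% intervals. The averaged values run from -0.33 for Serpinb2 to 0.92 for Plat, and no gene was DE in any of the 4 contrasts.

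Serpine2, the gene of protease nexin 1, was practically not detected. It lies on chromosome 1 from 79794197 to 79861180 on the minus strand and had 0 counts in 7 libraries and 1 count in replicate 2 of E6 after adhesion (0.0614 CPM). A count of 0 allows up to 3 counts at a one-sided level of 95%, which corresponded to 0.149 to 0.222 CPM across the libraries. The exact two-sided 95% intervals, as given for Plat, reached up to 0.183 to 0.273 CPM in the 7 libraries at 0 and 0.342 CPM in the library with 1 count. The gene was not tested, and no difference between conditions was detectable at this depth.

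Set side by side per kilobase of exon, the urokinase gene exceeded its inhibitor gene in WT, and the order was turned in E6. The ratio of Serpinb2 to Plau was 0.238 and 0.237 in WT before adhesion and 0.281 and 0.177 in WT after it. In E6 it was 1.43 and 2.20 before adhesion and 1.09 and 1.06 after it. All WT ratios were thus below 1 and all E6 ratios above 1, a description of the contrast by which the genes were chosen. The ratio of Plaur to Plau was 0.427 and 0.454 in WT before adhesion, 0.417 and 0.515 in WT after it, 0.656 and 0.816 in E6 before adhesion, and 0.499 and 0.510 in E6 after it. For this ratio the E6 libraries after adhesion overlapped the WT range. Both ratios were lower after than before adhesion in E6, where Plau had its highest levels.

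**Figure D3:**
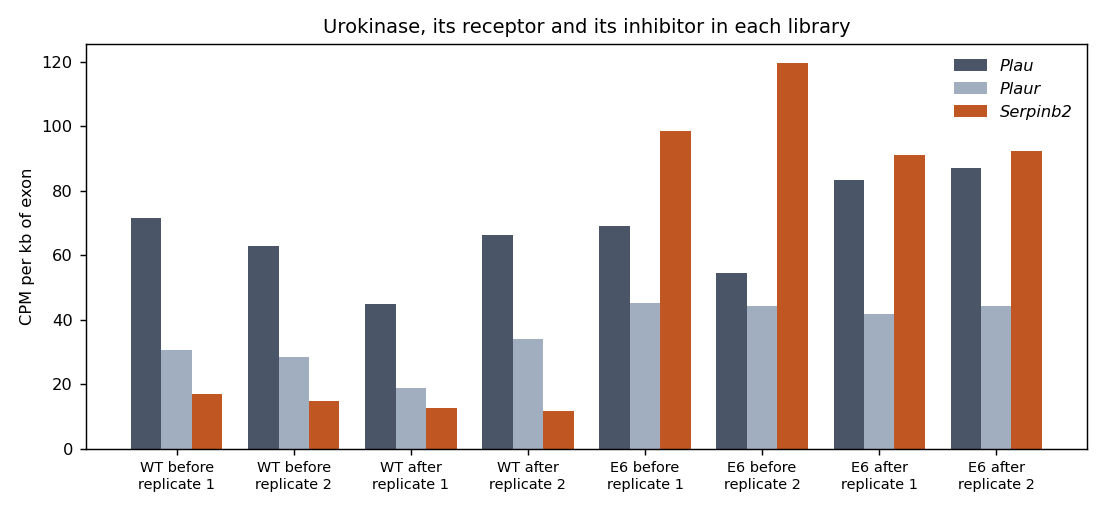
Levels of Plau, Plaur and Serpinb2 in CPM per kilobase of exon (linear axis from 0) in each of the 8 libraries; bars are single libraries. Serpinb2 is the lowest of the 3 genes in the 4 WT libraries, at 11.7 to 16.97, and the highest in the 4 E6 libraries, at 91.0 to 119.5.

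The substrate of the activators and its docking sites were read from their own genes. Plg, the gene of plasminogen, had no count in any library. Anxa2 and S100a10, whose proteins form a complex that binds plasminogen at the cell surface, stood at 1253 to 2336 and 435 to 612 CPM, and Plgrkt, the gene of a plasminogen receptor, at 15.5 to 21.3 CPM. None of these 3 tested genes was DE between E6 and WT averaged by edgeR, a contrast in which 11.3% of all tested genes were called, with log2 FCs between -0.22 and 0.13. Eno1 was counted in 1 library only, and its near-identical copy makes that count uncertain.

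Among the clearance receptors and partners of the urokinase receptor, 1 of 5 tested genes was DE between E6 and WT, where 11.3% of all tested genes were called. Vldlr, which encodes a lipoprotein receptor that can take up complexes of urokinase and its inhibitor, fell in E6 from 73.7 ± 9.04 to 43.4 ± 8.81 CPM (SD, n = 4), with a log2 FC of -0.80 (SE 0.09) and an edgeR FDR of 0.00165. Lrp1, the larger receptor of the same family, stood at 366 to 621 CPM and was not DE. Its log2 FC of -0.46 (SE 0.13, edgeR FDR 0.0409) passed the FDR limit but not the fold limit. Of the proteases that activate the urokinase precursor and their inhibitors, 0 of 4 tested genes (St14, Ctsb, Spint1 and Spint2) were DE, and Hpn, Klkb1 and F12 had no count. Their log2 FCs were small, at most 0.29 for St14, which encodes matriptase and stood at 432 to 695 CPM. After adhesion 0 of the 30 tested genes of these lists, the coagulation receptors and the clade B serpins were DE by edgeR. Of these, 5 had an unadjusted edgeR p under 0.05, against 9.89% of all tested genes, and 0 were DE by DESeq2.

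Receptors of thrombin and coagulation moved in both directions. F2r, which encodes the main thrombin receptor, fell in E6 from 16.5 ± 3.14 to 4.54 ± 0.789 CPM (SD, n = 4), with a log2 FC of -1.88 (SE 0.13) and an edgeR FDR of 0.000344. F2rl1, which encodes the receptor cut by trypsin-like proteases, fell from 15.4 ± 1.26 to 5.73 ± 0.640 CPM, with a log2 FC of -1.45 (SE 0.12) and an edgeR FDR of 0.000562. F3, the gene of tissue factor, which starts coagulation, rose from 17.96 ± 2.94 to 30.9 ± 2.00 CPM, with a log2 FC of 0.77 (SE 0.11) and an edgeR FDR of 0.00434. These 3 of the 5 tested genes were DE, in a contrast where 11.3% of all tested genes were called. Leaving out any 1 library kept the log2 FC between -1.96 and -1.81 for F2r and between -1.53 and -1.38 for F2rl1. For F3 it stayed between 0.70 and 0.87. By state the log2 FC of F3 was 1.05 (SE 0.16) before adhesion and 0.48 (SE 0.15) after it, where F3 was not DE. F2, the gene of prothrombin, had no count in any library.

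**Figure D4:**
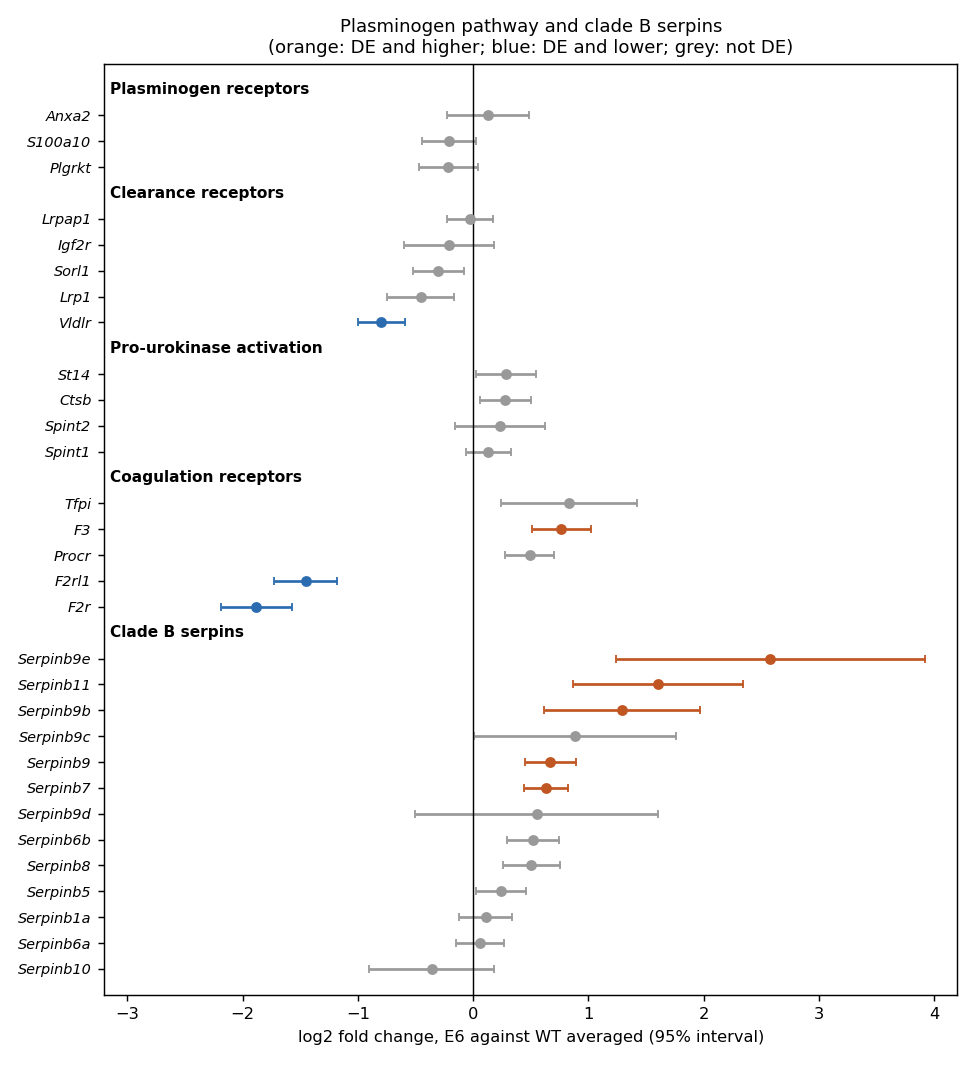
log2 fold change of E6 against WT, averaged over both states, for 30 tested genes of the plasminogen pathway lists and the clade B serpins; points are edgeR estimates, bars 95% intervals, and colours mark genes called DE. F3 at 0.77 and 5 clade B serpins lie on the higher side, and F2r, F2rl1 and Vldlr on the lower.

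The clade B serpins, the family of Serpinb2, are largely intracellular proteins, many but not all of which inhibit proteases. Of 26 others listed, 13 were tested, 5 were DE and higher in E6 and 0 were lower, against 5.22% and 6.13% of all tested genes. The median log2 FC of the 13 was 0.55, that of Serpinb9d, against -0.01 over all tested genes. These values are of the averaged contrast. By state, in contrasts that called fewer genes in all, 1 of the 13 was DE before adhesion and 4 after it, all higher. The medians were 0.59 and 0.50. Serpinb9d and Serpinb9e, at most 0.592 and 0.425 CPM in WT, passed the filter on low counts through E6 libraries. Their higher level in E6 is thus partly a condition of being tested. Without replicate 1 of WT after adhesion, 7 of 13 were higher and 0 lower, in a fit that called 13.2% of genes. Serpinb7 rose from 38.1 to 59.8 CPM, with a log2 FC of 0.63 (SE 0.08) and an edgeR FDR of 0.00308. Serpinb9, which encodes an inhibitor of granzyme B, was at 50.1 to 58.9 CPM in the WT libraries and 77.7 to 90.6 CPM in those of E6, with a log2 FC of 0.67 (SE 0.09) and an edgeR FDR of 0.00401. Serpinb9b was low, at 0.665 to 1.84 CPM in WT and 2.54 to 3.43 CPM in E6, and its log2 FC of 1.29 (SE 0.29, edgeR FDR 0.0209) lost its call in 6 of the 8 fits that left out a library. The other 2, Serpinb11 (1.60, edgeR FDR 0.0135) and Serpinb9e (2.58, edgeR FDR 0.0203), lay below the level set for naming genes and are named because they complete the count. The Serpinb9 genes are close copies of each other, so reads that match several of them could have been lost or assigned to another copy. On chromosome 1, which holds Serpinb2, 2 of 5 tested clade B genes were DE, and on chromosome 13 3 of 8 were, Serpinb9e among them. Of all tested genes 11.3% were called.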

How the data were processed

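RNA of the mTEC 3.10 WT line and of clone E6, before and after thymocyte adhesion, was sequenced by the study in 8 libraries as paired-end reads and aligned to mm10 with STAR 2.5.0a, per the labels. The deposited values are raw read counts per gene symbol from HTSeq, which the authors did not normalize. The strand setting and annotation of the counting are not given in the sources used here. The labels name a stranded mRNA kit and the methods a stranded total RNA kit. In 1 library 18 symbols turned into dates were restored from the gene order. Alignments not on a gene (21.2% to 33.3%) were left out of library sizes.

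Counts were tested with edgeR 4.0.16 (R 4.3.3): TMM scaling (factors 0.938 to 1.03), filterByExpr by condition (11672 of 24052 symbols kept), 1 mean per condition over 8 libraries, and the quasi-likelihood test with Benjamini-Hochberg FDR below 0.05 over all tested genes and an FC of at least 1.5. The median log2 FC of all genes stayed within 0.03 of 0 in every contrast. The code was tested on simulated data. SE is the absolute log2 FC divided by the square root of F. CPM values are counts scaled to the library total on genes and mean ± SD is over libraries. A floor of 3 counts corresponds to 0.149 to 0.222 CPM; intervals and floors cover counting error only. Positions and exon lengths are from GENCODE vM21 on GRCm38 (22740 symbols matched directly, 916 by an older symbol, 396 not).

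The 5 genes and the wider lists were chosen with earlier results of these data known. One item of the wider lists is not reported here. Genes of the wider lists were named if DE between E6 and WT or after adhesion, averaged, at a mean log2 CPM of at least 1, up to 20. The 3 nearest tested genes on each side of a gene and the 3 with the most similar profile were also named. Alternatives were RLE size factors, DESeq2 1.42.0, no filter on low counts, the replicate number as a block, culture time as a covariate, no FC limit and leaving out each library. Counts over the lists without replicate 1 of WT after adhesion were added after seeing the data. Among the other marker lists, the macrophage and dendritic cell markers summed to 48.5 to 80.3 CPM, mostly Csf1r and Cd14, the fibroblast markers to 1.16 to 4.12 CPM and the endothelial markers to 0 to 2.14 CPM over the libraries.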

Additional observations from a re-analysis of the deposited data

How the results depend on the processing

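The numbers of DE mRNAs moved with the processing. Between E6 and WT averaged, dropping the fold limit gave 2444 DE mRNAs in place of 1324, and leaving out 1 library gave 671 to 2557. Before adhesion the replicate block gave 383 and culture time as a covariate 345 in place of 585, and leaving out 1 library 37 to 1512. After adhesion leaving out 1 library gave 27 to 4500 in place of 1040. For adhesion averaged, DESeq2 gave 337, the replicate block 139 and culture time 124 in place of 221, and leaving out 1 library 39 to 1341. For adhesion in WT, DESeq2 gave 64 in place of 0, and leaving out 1 library 0 to 3550. For adhesion in E6, the replicate block gave 132 and culture time 142 in place of 234, and leaving out 1 library 0 to 643. For the difference of the adhesion effects, DESeq2 gave 3 in place of 0, and leaving out 1 library 0 to 3049. The highest of these counts came from leaving out replicate 2 of WT after adhesion, except for adhesion in E6, where it came from leaving out replicate 1 of that condition. The cause was not tested. A condition reduced to 1 library was assumed to vary like the others.

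With culture time as a covariate the difference of the adhesion effects for Serpinb2 turned from 0.06 to -0.021. Leaving out 1 library moved it from -0.083 to 0.21, with -0.045 and -0.033 among the reversed values. For Plaur that difference ran from -0.25 to 0.48, with -0.014 and -0.0046 also reversed, and for Plau from 0.51 to 0.93. Leaving out 1 library moved the averaged adhesion effect of Plau from -0.034 to 0.19 and of Plaur from -0.34 to 0.042, that of Plaur in WT from -0.58 to 0.17 and that of Plat in E6 from -0.0043 to 0.76. Between E6 and WT before adhesion Plau ran from -0.28 to 0.050 and Plat from -0.070 to 0.50, with -0.016 also reversed. Under the 5 other settings, 0 of 80 values of the 4 tested genes in the adhesion contrasts were DE. The replicate numbers of the titles are not stated to pair libraries: correlations of same-numbered deviations over 11672 genes ran from -0.02 to 0.12, and the replicate block changed no call of the 4 tested genes or of the 7 genes of the wider lists named by level. Depth limits Plat and Serpine2, with at most 19 counts per library.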

Other observations

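On chromosome 1, the 3 nearest tested genes on each side of Serpinb2 were mostly serpins of the same clade. Serpinb7 and Serpinb11, on the side before it, were DE and higher in E6 (log2 FC 0.63 and 1.60), whereas Serpinb5 (0.24), Serpinb10 (-0.36), Serpinb8 (0.50) and Dsel (-0.16) were not DE. Serpinb10, the gene that overlaps Serpinb2, stood at a mean of 2.52 CPM in WT and 1.96 CPM in E6. Near Plaur, 2 of 6 neighbours were DE in opposite directions: Kcnn4, the gene of a calcium-activated potassium channel, fell (log2 FC -1.89, SE 0.23, edgeR FDR 0.00243), and Lypd5, which encodes a protein of the same fold family as the urokinase receptor, rose at a low level (1.74, SE 0.38, edgeR FDR 0.0189). The 6 neighbours of Plau, of Plat and of Serpine2 held 0 DE genes between E6 and WT. In this contrast 11.3% of all tested genes were called, and no count among 6 neighbours was tested against that share.

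The profiles most like each gene over the 8 libraries were found as the smallest root mean square difference of centred log2 CPM among the other tested genes whose average log2 CPM reached 1. For Serpinb2 these were Acsbg1 (0.285), Atp10b (0.291) and Fxyd3 (0.372), against a root mean square of 1.42 for the Serpinb2 profile itself. For Plaur they were Scarb1 (0.0492), C330006A16Rik (0.0563) and Nupl2 (0.065), against 0.388. For Plau they were Slc35a2 (0.0887), Fes (0.103) and Sash1 (0.117), against 0.257. For Plat, with 4 to 19 counts per library, they were Zfp867 (0.221), Gm16576 (0.262) and AA987161 (0.269), against 0.515.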
